A study of Mus musculus with 6 samples.

Results

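The 8 genes described here encode the enzymes that empty the lipid droplet of a fat cell and the proteins that speed or restrain them, and they were taken by symbol from the 16538 genes of the deposited RNA-Seq table. The genes are Pnpla2, Lipe, Mgll, Abhd5, G0s2, Hilpda, Pnpla3 and Hcar2, and all 8 were listed. The tissue was iWAT, the inguinal white fat that lies under the skin, with 3 control and 3 AKO samples, and the RNA of 2 mice was pooled for each. The control mice, labelled wt, carried floxed Nrg4 alleles without Cre (fl/fl), and the AKO mice carried the same alleles with Adiponectin-Cre, which is driven by an adipocyte promoter and leaves Nrg4 intact in other cells of the depot. Mice of both groups were fed chow and kept at 8°C, for 10 days by the labels and somewhat longer by the paper, and their age was not given in the sources used here. Values are normalized counts, that is, reads per gene divided by a scaling factor of the sample.

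Lipolysis breaks stored triglyceride down in steps. Adipose triglyceride lipase (ATGL, encoded by Pnpla2) removes the first fatty acid, hormone-sensitive lipase (HSL, Lipe) acts mainly on the resulting diglyceride, and monoglyceride lipase (Mgll) releases the last fatty acid and glycerol. CGI-58 (Abhd5) activates ATGL, while G0S2 and HILPDA bind and inhibit it. Pnpla3 encodes a close relative of ATGL that can take up CGI-58 and follows feeding and lipogenic signals. Hcar2 encodes a Gi-coupled receptor for niacin and the ketone body β-hydroxybutyrate, which lowers cAMP and restrains lipolysis. In the cold, sympathetic nerves raise cAMP in brown and beige fat cells, and the released fatty acids fuel and activate UCP1.

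Promoters are shown for Pnpla2 and Abhd5, the enzyme and its activator, whose levels varied together over the samples, and for Pnpla3, the relative whose mean lay on the other side. Each run holds 250 bases before and 50 after the start site, in RefSeq coordinates of GRCm38.p6 and on the coding strand, and all 3 genes lie on the plus strand. Capitals mark every match to 9 motifs that were searched on both strands. The core of the nuclear receptor element was read as AGGTCA, and the cAMP response element by its core, spelled TGACG, and by its full form, spelled TGACGTCA. The other motifs were GTAAACA for forkhead factors, ACGTG for the hypoxia response core, CACGTG for the E-box, the CCAAT box, the TATA box spelled TATAAA and the GC box spelled GGGCGG. The cAMP core lies within its full form, and the hypoxia core within the E-box.
Pnpla2, chr7:141454938-141455237: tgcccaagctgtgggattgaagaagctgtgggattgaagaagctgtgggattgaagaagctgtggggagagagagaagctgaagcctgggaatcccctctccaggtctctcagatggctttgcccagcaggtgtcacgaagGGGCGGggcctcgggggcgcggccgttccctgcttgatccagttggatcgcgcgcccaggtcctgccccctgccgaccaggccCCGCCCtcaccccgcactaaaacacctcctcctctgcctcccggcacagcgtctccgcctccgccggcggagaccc
Abhd5, chr9:122351366-122351665: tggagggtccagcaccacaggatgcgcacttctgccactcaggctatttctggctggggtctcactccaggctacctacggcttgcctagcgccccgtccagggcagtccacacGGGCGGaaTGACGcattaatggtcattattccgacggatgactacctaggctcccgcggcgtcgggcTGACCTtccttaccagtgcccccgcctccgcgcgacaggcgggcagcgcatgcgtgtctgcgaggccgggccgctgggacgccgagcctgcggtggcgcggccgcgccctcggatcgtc
Pnpla3, chr15:84167566-84167865: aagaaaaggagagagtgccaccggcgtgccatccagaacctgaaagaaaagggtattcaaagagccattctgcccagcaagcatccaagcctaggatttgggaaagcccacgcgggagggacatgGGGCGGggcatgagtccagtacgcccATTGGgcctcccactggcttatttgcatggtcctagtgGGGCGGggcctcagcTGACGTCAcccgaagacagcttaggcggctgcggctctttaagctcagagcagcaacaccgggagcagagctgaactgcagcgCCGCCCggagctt

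The Pnpla2 promoter held matches to the GC box and to no other motif searched. The Abhd5 promoter held a GC box, a cAMP response core and a nuclear receptor core in its reverse complement, and the Pnpla3 promoter held 3 GC boxes, a CCAAT box and the full cAMP response element beginning 46 bases before the start site. RefSeq windows were found for 7 of the 8 genes, all but Hcar2, and these genes had 10 windows in all. The GC box was in 9 of the 10 windows and in 35.7% of the 32851 promoter windows of the same length. The cAMP response core was in 6 of the 10 (20.8% of all windows), the full element in 1 (1.79%), the hypoxia response core in 4 (19.6%) and the nuclear receptor core in 1 (16.3%). The forkhead motif and the E-box were each in 2 of the 10 windows (3.65% and 7.15% of all), CCAAT in 1 (37.4%) and TATAAA in none (13.6%). The windows were GC-rich, with 50.7% to 72.3% G and C and 9 of 10 above the median of all windows (52.7%), and the 2 Hilpda windows share 162 bases and a match to the cAMP core. A match is a description of the letters and was not tested against any measurement.

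Depth was similar, from 17570335 to 18373707 reads on the listed genes. Nrg4, the targeted gene, had a control mean of 3108 ± 18.3 normalized counts (SD, n = 3) and an AKO mean of 2632 ± 57.3 (SD, n = 3), a log2 fold change of -0.24 (adjusted p = 0.298 from limma), and this count over the whole gene does not check the deleted part. By qPCR, the paper reports almost no Nrg4 mRNA in AKO iWAT. All 10 adipocyte markers examined were detected, and their summed level was 690915 to 710191 in control and 582409 to 683715 in AKO, with AKO replicate 2 the lowest. Skeletal muscle RNA varied most between samples, with the 15 muscle markers summing to 684, 29830 and 16524 in control replicates 1 to 3 and to 21963, 83472 and 126167 in AKO replicates 1 to 3. All 8 beige markers had a lower mean in AKO, and their sum was 28830 to 41625 in control and 12270 to 15661 in AKO. All 7 stromal and progenitor markers had a higher mean in AKO (median log2 fold change 0.28), their sum was 63834 to 91234 in control and 75663 to 102476 in AKO, and DESeq2 called Dpp4 as higher (adjusted p = 0.00844). The part of stromal cells in the results was not tested. In bulk tissue, fewer cells of a type and less RNA per cell cannot be told apart.

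Across the 8 genes the differences between genotypes were small, and none passed the threshold of an adjusted p under 0.05. Pnpla2, Lipe and Hcar2 lay lower in all 3 AKO samples than in any control, the other 5 overlapped between the groups, and the means of Hilpda and Pnpla3 were higher in AKO. All 8 passed the filter of a mean of at least 10 normalized counts and were tested among 13855 genes with limma on log2(normalized count + 1), a scale that understates changes of low genes. limma called 0 of the 8 at an adjusted p under 0.05 (Benjamini-Hochberg), against 0.0144% of all genes tested. The quasi-likelihood test of edgeR and DESeq2, run on the whole reads recovered from the table, also called 0 of the 8, against 0.0216% and 0.998% of the genes they tested. At an unadjusted p under 0.05, limma had 2 of the 8 (Hcar2 and Abhd5, both lower in AKO), where 4.69% of all genes were lower and 4.41% higher at that level, and edgeR and DESeq2 each had 3, which added Pnpla2. At that level edgeR had 4.07% of its genes lower and 5.17% higher, and DESeq2 had 3.28% lower and 2.97% higher. The 3 genes whose groups did not overlap were all lower in AKO (37.5% of the 8), where 8.31% of all tested genes were lower without overlap and 6.14% higher. The median log2 fold change of the 8 was -0.13, and that of all genes tested was 0.007. With a score of the muscle markers as a covariate, 0 of the 8 were called, and the log2 fold changes were -0.24 for Pnpla2, -0.13 for Lipe, -0.12 for Mgll, -0.32 for Abhd5, -0.17 for G0s2, 0.27 for Hilpda, 0.07 for Pnpla3 and -0.39 for Hcar2. The part of muscle RNA in these differences was not tested further.

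**Figure D1:**
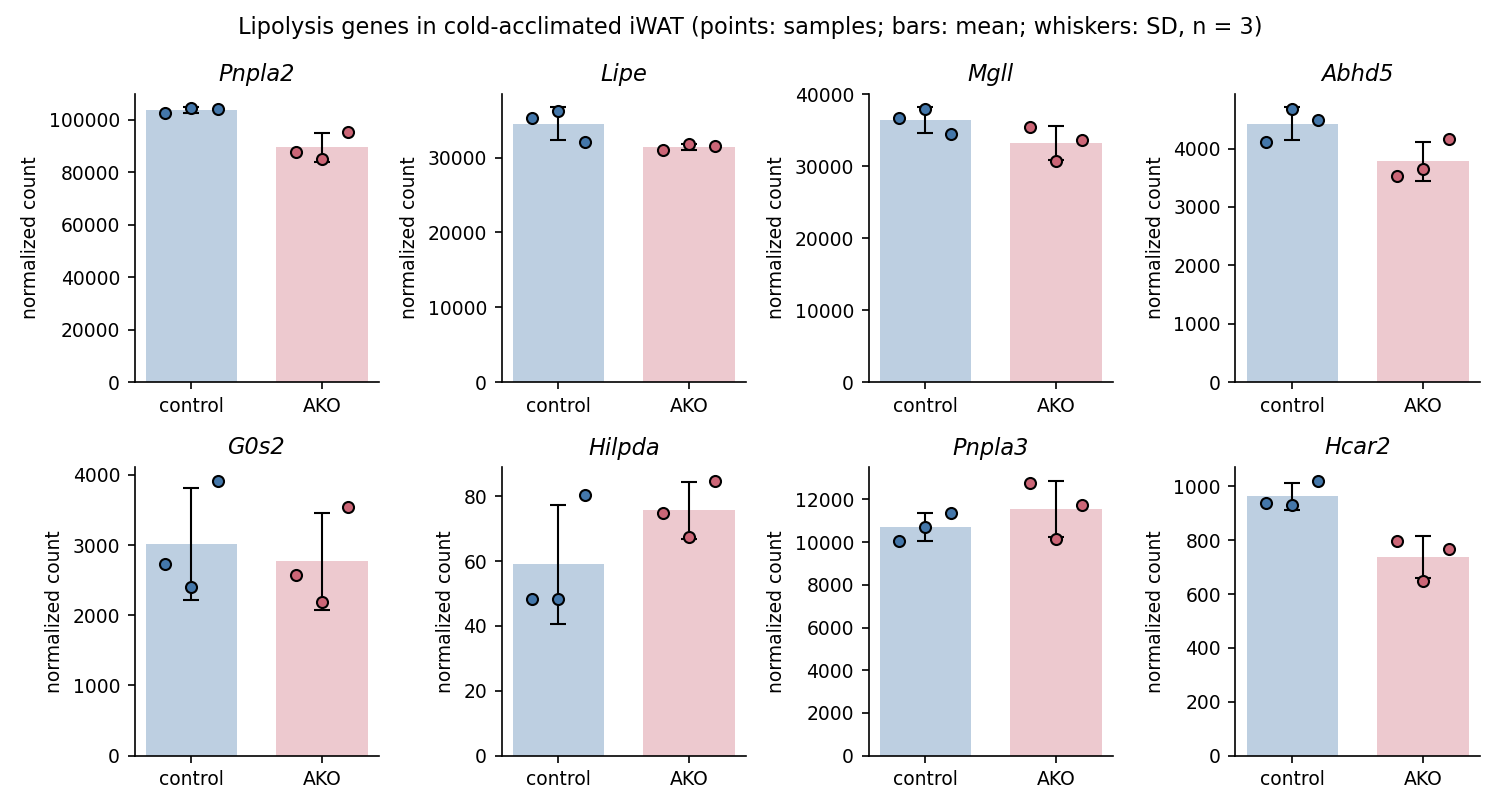
Normalized counts of the 8 lipolysis genes, with 1 point per sample, bars at the mean of 3 samples and whiskers of 1 SD; every axis starts at 0. The AKO points lie below all control points for Pnpla2, Lipe and Hcar2 and overlap them for the other 5 genes.

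Pnpla2 was the most abundant of the 8 genes per exon length, and its AKO samples formed a separate, lower group. It lies on the plus strand of chromosome 7 of GRCm38 (141455198 to 141460743). The control samples had 102695, 104633 and 104154 normalized counts, and the AKO samples had 87904, 85119 and 95513. The coefficient of variation was 0.972% among the controls and 6.01% among the AKO samples, and the nearest samples of the groups were 7182 normalized counts apart. The control mean was 103828 ± 1010 (SD, n = 3) and the AKO mean 89512 ± 5380 (SD, n = 3), a difference of -13.8%. The log2 fold change was -0.22 (standard error 0.10, 95% interval -0.45 to 0.02), and the adjusted p was 0.568 by limma and 0.130 by DESeq2. A 2-sided exact permutation test gave p = 0.1, the smallest that 3 samples against 3 allow.

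Lipe differed by less than Pnpla2, and the interval of its difference includes no change. It lies on the minus strand of chromosome 7 (25379527 to 25398710). Control replicates had 35284, 36266 and 32059 normalized counts, and AKO replicates had 31014, 31789 and 31529. The groups did not overlap, but control replicate 3 lay only 269 normalized counts above the highest AKO sample. The control mean was 34536 ± 2201 (SD, n = 3) and the AKO mean 31444 ± 395 (SD, n = 3), and the log2 fold change was -0.13 (standard error 0.08, 95% interval -0.32 to 0.05, adjusted p = 0.672 from limma). The exact permutation test gave p = 0.1. The exons of Lipe share 15.6% of their bases with 4732471J01Rik on the opposite strand, and whether the counting used strand is not given in the sources used here. That gene had 0.605% of the level of Lipe.

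Mgll, the enzyme of the last step, overlapped between the genotypes. It lies on the plus strand of chromosome 6 (88724412 to 88828360). The control samples had 36761, 38005 and 34491 normalized counts and the AKO samples 35491, 30793 and 33597, so that AKO replicate 1 lay above control replicate 3. The means were 36419 ± 1782 (SD, n = 3) and 33294 ± 2364 (SD, n = 3), and the log2 fold change was -0.13 (standard error 0.09, 95% interval -0.33 to 0.07, adjusted p = 0.712 from limma) and an exact permutation p of 0.2. As a fold, the interval ran from 0.793 to 1.05 for Mgll and from 0.802 to 1.04 for Lipe, so that a drop of either transcript to below 0.793 times its control level lay outside both intervals.

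Abhd5, the activator of ATGL, had a lower mean in AKO by about as much as Pnpla2, with overlap of a single pair of samples. It lies on the plus strand of chromosome 9 (122351608 to 122381524). The control samples had 4121, 4670 and 4492 normalized counts and the AKO samples 3538, 3651 and 4158, and AKO replicate 3 was above control replicate 1. The control mean was 4428 ± 280 (SD, n = 3) and the AKO mean 3782 ± 330 (SD, n = 3), a difference of -14.6%. The log2 fold change was -0.23 (standard error 0.08, 95% interval -0.42 to -0.04). The unadjusted p was 0.0237 and the adjusted p 0.498 from limma, and the exact permutation test gave p = 0.2. The exons of Abhd5 share 16.0% of their bases with A730085K08Rik on the opposite strand, which had 0.0408% of the level of Abhd5. Over the 6 samples, the log2 values of Abhd5 and Pnpla2 had a Pearson r of 0.92, a description over samples that share the split by genotype.

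Of the inhibitors of ATGL, G0s2 varied within each genotype far more than between them, and Hilpda was low throughout. G0s2 lies on the minus strand of chromosome 1 (193272161 to 193273217) and had 2730, 2396 and 3917 normalized counts in control and 2574, 2189 and 3541 in AKO. Replicate 3 was the highest sample and replicate 2 the lowest in both groups, and the coefficients of variation were 26.5% and 25.2%. The means were 3014 ± 799 (SD, n = 3) and 2768 ± 697 (SD, n = 3), and the log2 fold change was -0.12 (standard error 0.22, 95% interval -0.62 to 0.38, adjusted p = 0.917 from limma) and an exact permutation p of 0.6. As a fold, this interval ran from 0.651 to 1.3, so that a change of G0s2 of the size seen for Pnpla2 was not detectable here in either direction. The direction itself turned to 0.08 without control replicate 3 and to 0.03 without AKO replicate 2.

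Hilpda, a target of hypoxia-inducible factors, lies on the plus strand of chromosome 6 (29272488 to 29275446). Control replicates had 48.2, 48.4 and 80.3 normalized counts and AKO replicates 74.9, 67.4 and 84.8, so that control replicate 3 lay among the AKO samples. The means were 59.0 ± 18.5 (SD, n = 3) and 75.7 ± 8.77 (SD, n = 3), and the log2 fold change was 0.39 (standard error 0.23, 95% interval -0.14 to 0.92, adjusted p = 0.661 from limma) and an exact permutation p of 0.3. At the AKO mean counting error alone gives a coefficient of variation of 11.3%, close to the 11.6% measured among the AKO samples. Among the controls the measured value was 31.4%, well above the 13.2% from counting error. Without control replicate 3 the log2 fold change was 0.63 and the groups did not overlap (adjusted p = 0.388 from limma).

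Pnpla3, the lipogenic relative of Pnpla2, had a higher mean in AKO, with overlap between the groups. It lies on the plus strand of chromosome 15 (84167837 to 84187236), with 10040, 10704 and 11345 normalized counts in control and 12777, 10150 and 11728 in AKO. The AKO samples spanned nearly the whole control range and reached above it. The means were 10696 ± 652 (SD, n = 3) and 11552 ± 1322 (SD, n = 3), and the log2 fold change was 0.11 (standard error 0.10, 95% interval -0.12 to 0.33, adjusted p = 0.803 from limma) and an exact permutation p of 0.4. Without AKO replicate 2 the log2 fold change was 0.20 and the groups did not overlap. It fell to 0.03 without AKO replicate 1 and to 0.06 without control replicate 1.

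Hcar2 had the largest difference of the 8 in units of its standard error. It lies on the minus strand of chromosome 5 (123863570 to 123865499). The control samples had 937, 931 and 1021 normalized counts, and the AKO samples had 798, 649 and 768, which were all lower, with 133 normalized counts between the nearest samples. The control mean was 963 ± 49.9 (SD, n = 3) and the AKO mean 739 ± 78.7 (SD, n = 3), a difference of -23.3%. The log2 fold change was -0.39 (standard error 0.09, 95% interval -0.60 to -0.17), with an unadjusted p of 0.00301 and an adjusted p of 0.315 from limma, 0.318 from edgeR and 0.063 from DESeq2. The exact permutation test gave p = 0.1. With each sample left out the log2 fold change ran from -0.45 to -0.30. Macrophages and neutrophils also express Hcar2. All 10 macrophage markers had a higher mean in AKO, and their sum was 11493 to 16419 in control and 14228 to 19703 in AKO. The 5 listed neutrophil markers summed to 87.4 to 100 in control and 94.5 to 204 in AKO, with AKO replicate 2 the highest. Of the 3 that passed the filter, Csf3r was higher in all AKO samples, while S100a8 (9.6, 25.4 and 4.82 normalized counts in AKO) and S100a9 (7.68, 61.5 and 5.78) were high in AKO replicate 2 alone. Their part in the Hcar2 level was not tested.

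**Figure D2:**
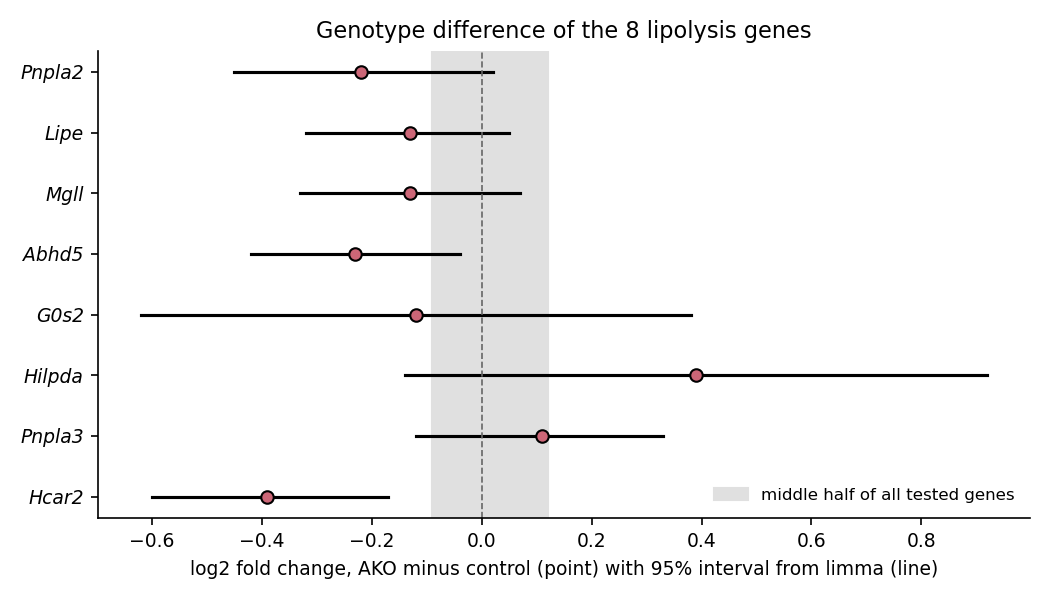
Log2 fold change (AKO minus control) of each lipolysis gene on the log2(normalized count + 1) scale, with 95% intervals from limma; the grey band is the middle 50% of the 13855 genes tested, from -0.09 to 0.12. The intervals of Abhd5 and Hcar2 lie below 0 before adjustment, and G0s2 and Hilpda have the widest intervals.

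Per exon length, ATGL transcripts far outnumbered those of its partners in both genotypes. Divided by the kilobases of all annotated exons, Pnpla2 had a control mean of 34380 ± 334 normalized counts per kb (SD, n = 3) and an AKO mean of 29640 ± 1782 (SD, n = 3). Next came Mgll, with 6065 to 7486 per kb over the 6 samples, Pnpla3, with 6486 to 8254, and Lipe, with 5269 to 6161. Mgll overlapped with both Pnpla3 and Lipe in this order, while Pnpla3 and Lipe did not overlap. G0s2 followed with 2513 to 4497 per kb, then Abhd5 with 594 to 784, Hcar2 with 336 to 529 and Hilpda with 43.7 to 76.9, and none of these ranges overlapped with its neighbors. Pnpla2 made up 58.2% of the summed per-kb level of the 8 genes in control and 55.7% in AKO. G0s2 made up 5.85% and 5.92%, Abhd5 1.26% and 1.19%, and Pnpla3 11.7% and 14.0%. The lengths count every annotated exon, so that a gene with many alternative exons has a lower value per kb than the transcript the tissue uses.

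**Figure D3:**
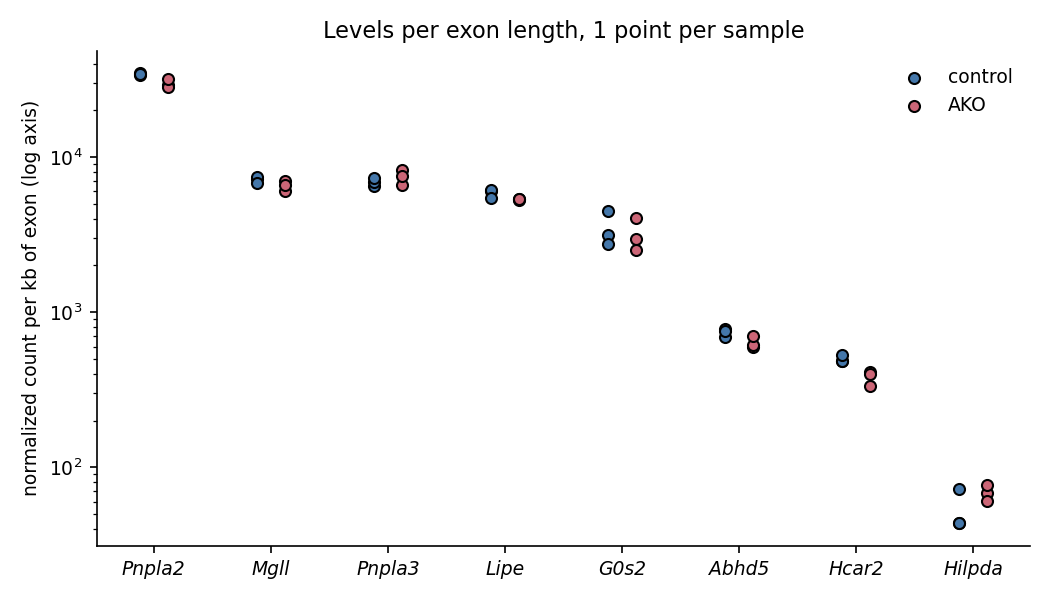
Normalized counts per kb of exon on a log axis, 1 point per sample, with genes ordered by their control mean. Pnpla2 (28185 to 34647) stands above all others, and Hilpda (43.7 to 76.9) stands below all others in both genotypes.

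Ratios of 2 members within a sample do not depend on the scaling between samples. They compare an enzyme with its inhibitor, its activator, its relative or the next enzyme, and the activator with an inhibitor. The ratio of the enzyme to its activator differed little between the genotypes, while ATGL transcripts were lower relative to Hilpda and to Pnpla3 in every AKO sample. The ratio of Pnpla2 to Abhd5 was 24.9, 22.4 and 23.2 in control and 24.8, 23.3 and 23.0 in AKO, a log2 difference of 0.01 (exact permutation p = 0.8). The ratio of Pnpla2 to Pnpla3 was 10.2, 9.77 and 9.18 in control and 6.88, 8.39 and 8.14 in AKO, a log2 difference of -0.32. The ratio of Pnpla2 to Hilpda was 2089, 2118 and 1281 in control and 1158, 1245 and 1113 in AKO, a log2 difference of -0.61. The gap between control replicate 3 and AKO replicate 2 in the latter ratio was far smaller than the counting error of Hilpda. For both of these ratios the groups did not overlap, and the exact permutation test gave p = 0.1, or 0.35 after Benjamini-Hochberg adjustment over the 7 ratios computed.

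The remaining 4 ratios overlapped between the genotypes. The ratio of Pnpla2 to G0s2 was 37.6, 43.7 and 26.6 in control and 34.1, 38.9 and 27.0 in AKO, a log2 difference of -0.10 against an SD of 0.37 among the controls (exact permutation p = 0.8). Abhd5 to G0s2 differed by -0.11 on the log2 scale (exact permutation p = 0.8), Lipe to Pnpla2 by 0.08 (exact permutation p = 0.4) and Mgll to Lipe by 0.00 (exact permutation p = 1). With 3 samples against 3, none of these tests could pass an adjusted threshold of 0.05.

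**Figure D4:**
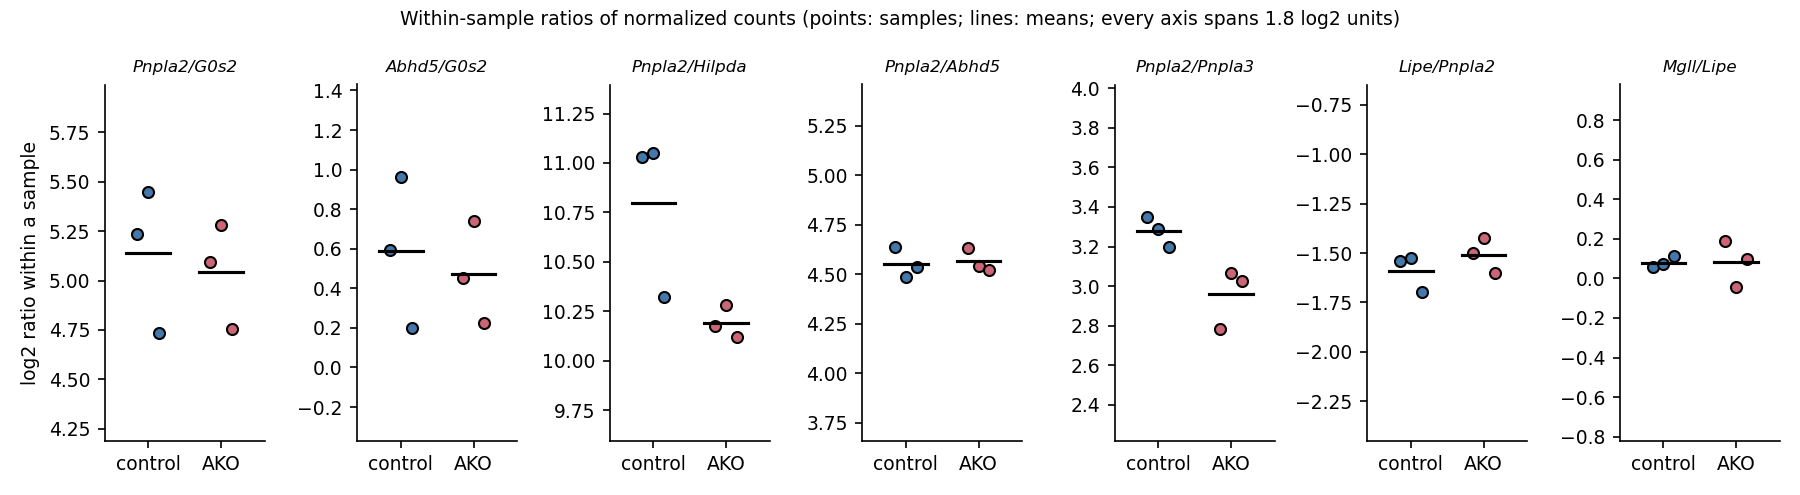
Log2 ratio of the normalized counts of 2 genes in the same sample, 1 point per sample with lines at the group means; each panel spans 1.8 log2 units. The AKO points lie below all control points for Pnpla2/Hilpda and Pnpla2/Pnpla3 and overlap them in the other 5 panels.

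Upstream of the lipases, the cAMP and protein kinase A arm had a lower mean log2 value in AKO for 17 of 23 genes, with a median log2 fold change of -0.09. Over all genes tested, 48.1% had a log2 fold change below 0, the share to set beside this count and those of the lists below. limma called none of the 23, and DESeq2 called 2, both lower. These were Adcy3, an adenylyl cyclase, with control and AKO means of 1322 ± 201 and 807 ± 55.1 normalized counts (SD, n = 3, log2 fold change -0.70, adjusted p = 0.196 from limma and 7.84e-06 from DESeq2), and Prkar2b, the main regulatory subunit of the kinase in fat (21146 ± 1159 and 17603 ± 391, log2 fold change -0.26, adjusted p = 0.374 and 0.0247). Gnas, which encodes the stimulatory G protein, had a log2 fold change of -0.30 and Gnai2, an inhibitory one, -0.01. The groups were lower without overlap for 5 of the 23 genes (21.7%, against 8.31% of all genes tested) and higher for 1 (against 6.14%). Of 13 genes for other receptors that drive or restrain lipolysis and for their signal proteins, neither tool called any, the median was -0.01, and 3 were lower in AKO without overlap (23.1%, against 8.31%). Hcar1, the lactate receptor and a close relative of Hcar2, had 3891 ± 90.5 and 3341 ± 155 normalized counts (SD, n = 3), and a log2 fold change of -0.22 (adjusted p = 0.374 from limma). The adenosine receptor Adora1 had a log2 fold change of 0.02 and the natriuretic peptide clearance receptor Npr3 0.25.

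Of 13 tested genes for the droplet coat and its assembly, 12 had a lower mean in AKO (median -0.12), and DESeq2 called 2, both lower, while limma called none. Plin5, which ties droplets to mitochondria and binds CGI-58 and ATGL, had control and AKO means of 912 ± 188 and 582 ± 110 normalized counts (SD, n = 3, log2 fold change -0.65, adjusted p = 0.374 from limma and 0.0167 from DESeq2). Cidea, a droplet protein of brown and beige fat, had a log2 fold change of -0.82 (adjusted p = 0.227 from limma and 1.97e-06 from DESeq2). The abundant coat genes Plin4 (0.00), Cidec (-0.16) and Cav1 (-0.06) had small log2 fold changes. The exception in direction was Fitm1, a gene of skeletal muscle named after its values were seen, with 1, 23.7 and 17.3 normalized counts in control and 21.1, 52.7 and 76.2 in AKO, in the order of the muscle markers within each group.

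Of 17 other neutral lipid hydrolases tested, 13 had a lower mean in AKO (median -0.10), 7 were lower without overlap (41.2%, against 8.31% of all genes tested), and neither tool called any. The most abundant were the carboxylesterases Ces1d (20641 ± 1294 and 16413 ± 2164 normalized counts, SD, n = 3, log2 fold change -0.34, adjusted p = 0.459 from limma) and Ces1f (log2 fold change -0.29), which can hydrolyse triglyceride, and Pnpla8, a phospholipase of the ATGL family (-0.13). Of 10 tested genes that carry or activate the released fatty acids, or pass glycerol out, 9 had a lower mean (median -0.12), and DESeq2 called 2, both lower. Fabp3, the fatty acid binding protein of oxidative tissues, had 519 ± 75.3 and 132 ± 64.7 normalized counts (SD, n = 3), a log2 fold change of -2.10 (adjusted p = 0.205 from limma and 0.00485 from DESeq2), and Acsl5, an acyl-CoA synthetase, had -0.60 (adjusted p = 0.227 and 0.000146). The far more abundant Fabp4 (-0.17), Acsl1 (-0.13) and Cd36 (-0.11) were called by neither. Among 16 transcription factors known to act on lipolysis genes, the median was -0.01, and DESeq2 called Ppara (-0.53, adjusted p = 0.0474) and Cebpb (-0.57, adjusted p = 0.0354), both lower, while Cebpa (-0.10), Srebf1 (0.05) and Ctnnb1 (-0.01) were not called.

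Beside these lists, the 8 beige markers had a median log2 fold change of -0.95, and DESeq2 called 7 of them, all lower. The exception was Ppargc1a (-0.25, adjusted p = 0.999 from DESeq2). limma called only 1 of the 8, Elovl3 (-1.64, adjusted p = 0.035), and missed Ucp1 (-1.75, adjusted p = 0.0703). A gene that limma did not call is therefore not shown to be unchanged. The 10 adipocyte markers had a median of -0.09, with none called by limma or DESeq2 and none without overlap. Of these 10, 9 had a lower mean in AKO, as did all 6 endothelial markers (median -0.09). A lean to lower means was thus not particular to the lists of the pathway. When values were scaled to the adipocyte markers of the same sample, an alternative chosen after the data were seen, Pnpla2 and Hcar2 still lay lower in every AKO sample (log2 fold changes -0.16 and -0.33), Lipe no longer did (-0.08), and Pnpla3 lay higher in every AKO sample (0.16). On that scale 2.62% of all genes tested were lower without overlap and 8.68% higher.

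**Figure D5:**
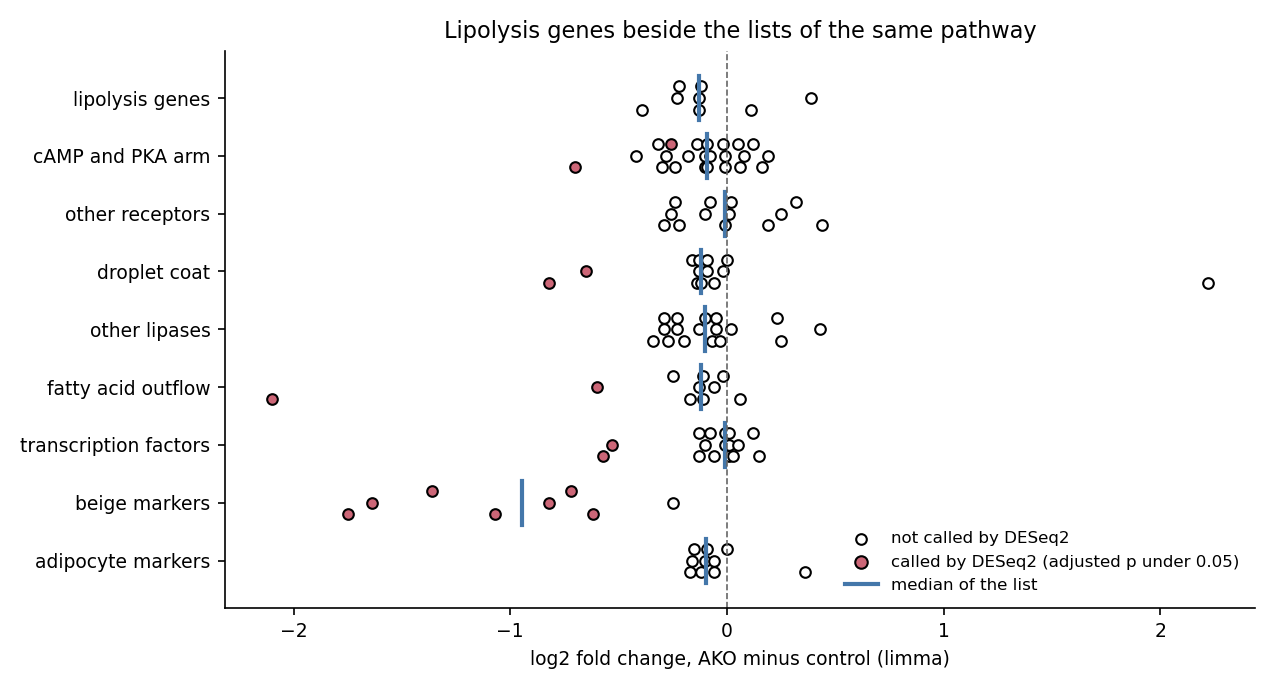
Log2 fold change (AKO minus control, limma) of each tested gene in the 8 lipolysis genes, in 6 lists of the same pathway and in the beige and adipocyte markers; filled points were called by DESeq2, and bars are medians. The lipolysis genes (median -0.13) lie near the adipocyte markers (-0.09), and the beige markers (-0.95) extend far to the left. The leftmost point is Fabp3 of the fatty acid outflow list (-2.10), and the point beyond 2 is Fitm1.

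The genes whose log2 values ran closest to those of 4 members over the 6 samples are given as a description. For Pnpla2 they were Zswim8 (Pearson r = 0.995), 1700028K03Rik (0.992) and Pde7b (0.990), a cAMP phosphodiesterase. For Hcar2 they were Mrps30 (0.994), Dusp3 (0.993) and 5031425E22Rik (0.988), and for Abhd5 they were Stim1 (0.989), H13 (0.988) and 4930415O20Rik (0.986). For G0s2 they were Cited2 (0.980), Cd14 (0.980) and Pdcd7 (0.975), whose log2 fold changes were -0.03, -0.03 and -0.08. The same 6 libraries and the same split by genotype underlie all of these values, and none of these 12 genes is in the lists of the pathway.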

How the data were processed

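RNA-Seq was performed on iWAT of cold-acclimated fl/fl and AKO mice (3 samples per genotype, RNA of 2 mice in each). The authors used STAR for alignment to GRCm38.p6, featureCounts with GENCODE M25 for counting and DESeq2 for the comparison. The deposited signal of a gene is its reads over the DESeq2 size factor of the sample, with no correction for length. The deposited log2 fold changes and p-values are the authors' own comparison and were not used. A read was worth 0.9603 to 1.0754 in the 6 samples, and division by that step returned whole reads for 100% of values (tolerance 0.01).

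limma (version 3.58.1, R 4.3.3) with a variance trend was run on log2(value + 1) for 13855 genes (mean value 10 or more), with Benjamini-Hochberg adjustment over all of them. Alternatives were edgeR (version 4.0.16) and DESeq2 (version 1.42.0) on recovered reads, limma-voom, TMM factors, other pseudocounts (0.1 and 10) and filters, a muscle score as covariate, the replicate number as a block and each sample left out. The tests were tried on simulated data with fold changes larger than those of the 8 genes, so that trial does not cover changes of this size. Single values were compared with 2-sided exact permutation tests. The 8 genes and all lists were chosen with earlier results of these data known. Named from each pathway list were the 3 genes with the highest mean and those called by limma or DESeq2. This rule was not used for the cell type markers. Positions and exon lengths are from GENCODE M21 (GRCm38), and promoters from RefSeq (GRCm38.p6). The p-values measure the spread between pools. Pools of a group were distinct libraries (chi-square over degrees of freedom 9.86 to 20.1), and all were kept. No per-sample column was left without a sample.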

Additional observations from a re-analysis of the deposited data

How the results depend on the processing

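No member was called under any of the 18 alternatives, and 142 of 144 recomputed log2 fold changes of members kept their sign. The other 2 were G0s2 without control replicate 3 and without AKO replicate 2 (range -0.31 to 0.08 with each sample left out). With each sample left out, members lower without overlap numbered 3 to 4 (11.4% to 15.1% of all genes) and members higher 0 to 1 (10.5% to 13.8% of all genes), and the latter numbered 1 with adipocyte marker scaling (Pnpla3). With each sample left out, the log2 ratio difference ranged from -0.30 to 0.06 for Pnpla2/G0s2, from -0.30 to 0.08 for Abhd5/G0s2, from -0.02 to 0.06 for Pnpla2/Abhd5 and from -0.05 to 0.07 for Mgll/Lipe. It ranged from 0.03 to 0.13 for Lipe/Pnpla2, from -0.38 to -0.23 for Pnpla2/Pnpla3 and from -0.85 to -0.48 for Pnpla2/Hilpda. The median of the other receptors ranged from -0.09 to 0.02 and that of the transcription factors from -0.04 to 0.01. Genes called in all numbered 2 with limma, 149 with DESeq2 (113 lower and 36 higher), 3 and 5 with edgeR (TMM and RLE factors), 6 with at least 10 normalized counts in every sample, 6 with adipocyte marker scaling, 0 with the muscle score, 3 without control replicate 2 and 0 without any other single sample. The causes were not tested. With the replicate block, 2 genes and 0 members were called, and Hcar2 had a log2 fold change of -0.39. Same-numbered samples correlated at 0.135, -0.351 and 0.240 in their deviations from the group means, so the numbers were not taken to pair samples. Depth limits Hilpda most.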
